A study of Mus musculus with 3 samples.

Results

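The genes described here encode 9 cell-surface receptors of the families through which platelets sense their agonists, although mouse platelets do not use all of them. They are the thrombin and protease-activated receptors F2r, F2rl1, F2rl2 and F2rl3, the nucleotide receptors P2ry1, P2ry12 and P2rx1, the adrenergic receptor Adra2a and the serotonin receptor Htr2a. They were chosen by name for the role of their products, with earlier results of these data known, and are 9 of the 22367 protein-coding genes on chromosomes 1 to 19, X and Y of the mm9 annotation. ChIP-seq reads of 3 libraries were counted at each gene: an antibody against FLI1, an antibody against RUNX1, and input chromatin that met no antibody. All 3 came from wild-type CD1 mouse fetal liver cells, labelled embryonic day 15 and grown for 5 days in thrombopoietin to give mature megakaryocytes (MK_Mat). Depletion of other blood lineages and sedimentation had enriched the large cells, and DNA of at least 3 precipitates was pooled for sequencing, so each factor had 1 library and no replicate. The FLI1 library held 62946422 reads in use, the RUNX1 library 3973856 and the input 21745220, which left the RUNX1 counts 15.8 times shallower than the FLI1 counts. The RUNX1 reads are those of the deposited file, which holds far fewer than the study lists as uniquely mapped for this factor. The study kept only reads at distinct positions, and the file holds no repeated position. Whether that removal accounts for the difference was not tested. RUNX1 calls and missing calls below therefore describe the reads of that file and not all the reads that the study lists. No test between groups was possible. Every interval below is an exact 95% interval that covers counting error only. It is Clopper-Pearson for ratios to input, Poisson for reads per bin, and the conditional exact interval of an odds ratio for pairs of genes.

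Platelets are shed by megakaryocytes and carry the receptors that their parent cells made. Thrombin cleaves the outer end of protease-activated receptors, and the new end then acts as a tethered ligand; ADP, ATP, adrenaline and serotonin released at a wound act on the other receptors and widen the response. FLI1, an ETS-family factor, and RUNX1, a Runt-domain factor, bind DNA in megakaryocytes, where loss of either disturbs platelet production. Since these are DNA libraries, they hold no measure of how much receptor RNA was made.

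Binding was read in 400-bp bins laid out from each gene start, the 5′ end of the gene record, in the direction of transcription. A bin was called when it held at least 7 reads and at least 3 times the expected reads, the expectation being whichever was larger, the rate over the genome or the input nearby. The start site meant 2 kb to each side of the gene start, and the territory meant the gene with 20 kb on each side. Fold in the text is the ratio of a bin's reads to its expectation, and the ratio to input is the ChIP reads over the input reads, each scaled to the depth of its library.

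The DNA under the strongest FLI1 binding is shown first, for all 7 regions that reached 10-fold or more, in falling order of fold. Each line gives 100 mm9 bases centred on the summit, the base under most FLI1 fragments, or 30 bases where the window touched a UTR, read 5′ to 3′ on the strand of the gene. Capitals mark ETS motifs (CAGGAA or else CCGGAA, in each case followed by A or G, on either strand) and RUNX motifs (TGCGGT or the variant TGTGGT, on either strand).
P2rx1, 139 bp upstream of the start, chr11:72812416-72812515, plus strand: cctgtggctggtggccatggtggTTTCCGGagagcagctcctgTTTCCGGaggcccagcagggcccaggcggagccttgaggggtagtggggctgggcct
Htr2a, 2620 bp into the gene, chr14:75043217-75043316, plus strand: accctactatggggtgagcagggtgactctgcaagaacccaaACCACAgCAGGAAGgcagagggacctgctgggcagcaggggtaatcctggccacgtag
F2rl3, 350 bp upstream of the start, chr8:75285379-75285478, plus strand: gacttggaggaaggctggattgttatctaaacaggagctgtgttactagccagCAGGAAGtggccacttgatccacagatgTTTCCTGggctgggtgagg
F2r, 116 bp upstream of the start, chr13:96388480-96388579, minus strand: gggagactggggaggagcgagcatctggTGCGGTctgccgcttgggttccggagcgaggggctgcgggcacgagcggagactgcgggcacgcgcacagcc
F2rl2, 57 bp into the gene, chr13:96466850-96466879, plus strand: gtggccacatcctttctctgtagaggcaag
F2r, 16254 bp upstream of the start, chr13:96404618-96404717, minus strand: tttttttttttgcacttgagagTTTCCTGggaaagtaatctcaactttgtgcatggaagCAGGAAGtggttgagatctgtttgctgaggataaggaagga
F2rl2, 4478 bp upstream of the start, chr13:96462280-96462379, plus strand: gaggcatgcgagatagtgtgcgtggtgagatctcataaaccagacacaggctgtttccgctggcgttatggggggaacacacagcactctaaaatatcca
Of the 7 windows of 100 bases, 4 hold an ETS motif and 3 do not. The P2rx1 window holds the ETS motif TTTCCGG at 2 places, and the F2rl3 window and the distal F2r window each hold 2 ETS motifs as well. The Htr2a window holds a RUNX motif and an ETS motif with a single base between them. The window at the F2r start holds a RUNX motif and no ETS motif of these spellings, and both F2rl2 windows hold neither.

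FLI1 bins were called at the start site of 7 of the 9 receptor genes (F2r, F2rl2, F2rl3, P2ry1, P2ry12, P2rx1 and Htr2a), against 36.2% of all genes tested, and in the territory of 8 of 9, against 63% of all genes. With the FLI1 reads thinned to the depth of the RUNX1 library by a single random draw, 4 start sites were called, against 15.3% of all genes. F2rl1 had no called bin, and the FLI1 bins of Adra2a lay just beyond the start-site window. RUNX1 was called at the start site of F2r alone, 1 of 9 genes against 2.86% of all genes, and in the territories of F2r, Adra2a and Htr2a, 3 of 9 against 10.5%. Those same 3 genes had a bin called for both factors, against 6.34% of all genes. With 10 reads needed, or with bins offset by 200 bp, F2r alone kept a RUNX1 bin in its territory, against 1.56% and 10.8% of all genes. With 5 reads needed, 8 of the 9 genes had a RUNX1 bin in the territory, against 52% of all genes. At the start site 5 reads gave 3 genes (F2r, F2rl2 and P2rx1), against 13.2% of all genes. Over the territories, 35 of 1346 bins (2.6%) were called for FLI1 and 4 (0.297%) for RUNX1, where the territories of all genes gave 1.02% and 0.0661%.

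The median FLI1 ratio to input at the start sites was 1.93 over the 9 receptors and 1.28 over the 21348 genes with at least 10 input reads, for which the interquartile range ran from 0.876 to 2.03. The median RUNX1 ratio was 1.86 over the receptors and 1.19 over all genes. FLI1 ratios ran from F2r at 4.73 through F2rl2, P2rx1, F2rl3, Htr2a, P2ry12, P2ry1 and F2rl1 down to Adra2a at 1.07. No gene in this order differed from the next beyond counting error. Of the 36 pairs of receptors, 21 differed in FLI1 ratio and 9 in RUNX1 ratio with an interval that left out 1, with no adjustment for the number of pairs. F2r, F2rl2 and P2rx1 each exceeded Htr2a, P2ry12, P2ry1, F2rl1 and Adra2a in FLI1, and each exceeded F2rl3, Adra2a and Htr2a in RUNX1.

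**Figure D1:**
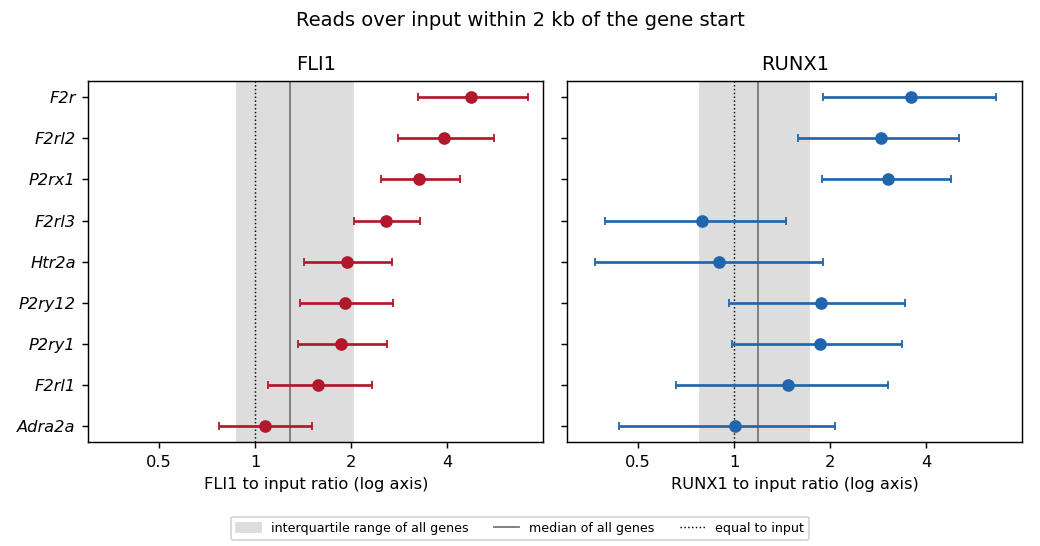
FLI1 (left) and RUNX1 (right) reads over input within 2 kb of each gene start, on log axes. Points are the ratios of depth-scaled reads and bars the exact 95% counting intervals; the grey band and line are the interquartile range and the median of all genes. F2r, F2rl2 and P2rx1 stand highest in both panels, whereas F2rl3 lies above the band for FLI1 and at 0.791 for RUNX1.

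The thrombin receptors differed widely among themselves. F2r (mm9 chr13:96371759-96388414, minus strand) encodes PAR1, the main thrombin receptor of human platelets, and had the highest start-site ratio to input for both factors. Against the genome-wide rate in place of the input, F2r stood at 3.63 for FLI1, behind F2rl3, P2rx1 and F2rl2, and at 2.78 for RUNX1, behind P2rx1 and F2rl2. Within 1 kb of the start the F2r ratios to input were 8.12 and 6.84, on fewer reads and with no interval computed. Its start site held 397 FLI1 reads, 19 RUNX1 reads and 29 input reads, for a FLI1 ratio of 4.73 (interval 3.24 to 7.15) and a RUNX1 ratio of 3.59 (1.90 to 6.62). These ratios exceeded those of 98.3% and 98.2% of all genes. The single bin just upstream of the start held 189 FLI1 reads against 1 input read (13.95-fold over expected) and 11 RUNX1 reads (12.9-fold), which were 47.6% of the FLI1 reads and 57.9% of the RUNX1 reads of the window. The 2 kb after the start held another 155 FLI1 reads, with no bin called. The RUNX1 reads came from both strands, 6 plus and 5 minus.

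F2r had further bins at a distance. A bin 16.4 kb upstream, inside an intron of the neighbouring gene Iqgap2, held 160 FLI1, 4 RUNX1 and 4 input reads (FLI1 12.45-fold). A second FLI1 bin lay 25.2 kb past the start, beyond the end of the gene, with 89 FLI1, 2 RUNX1 and 3 input reads (5.49-fold). The last called bin, 23.6 kb past the start, was called for RUNX1 only, on 7 reads (7.85-fold), and its 11 FLI1 reads were 0.779 of the expectation.

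F2rl2 (chr13:96466808-96472694, plus strand) encodes PAR3, which in mouse platelets serves as a cofactor that helps thrombin reach PAR4. The gene lies inside the record of Iqgap2 on the opposite strand, and its start is 78.4 kb from that of F2r. It had 430 FLI1, 20 RUNX1 and 38 input reads at the start site, for ratios of 3.91 (2.80 to 5.60) and 2.88 (1.59 to 5.08). The bin that begins at the start held 153 FLI1, 6 RUNX1 and 4 input reads (FLI1 12.6-fold, RUNX1 7.82-fold), and the RUNX1 reads fell 1 short of the 7 needed for a call.

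F2rl2 also had the densest FLI1 binding of the 9 genes, with 8 called bins in a territory of 46 kb. The bin 4.8 kb upstream reached 197 FLI1 reads (12.15-fold) with 3 RUNX1 and 11 input reads. Another, 11.2 kb upstream, held 178 FLI1 reads (9.61-fold) with 1 RUNX1 and 7 input reads. Weaker regions lay 17.2 kb upstream, 1.2 kb into the gene and 16 kb past the start, with 71, 93 and 123 FLI1 reads in their highest bins. All of the F2rl2 bins lie within the record of Iqgap2 as well, and reads alone do not assign them to either gene.

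F2rl3 (chr8:75285779-75287773, plus strand) encodes PAR4, the receptor through which thrombin signals in mouse platelets. It had the most FLI1 reads of the 9 start sites, 619, with 83 input reads, and a ratio of 2.58 (2.05 to 3.28). The input was itself 2.09 times the genome-wide rate there. The bin just upstream of the start held 336 FLI1 reads against 4 input reads (14.5-fold), the largest FLI1 read count in any bin of these genes, and its upstream neighbour was called too. RUNX1 contributed only 3 reads to that bin (2.05-fold) and 12 to the start site, a ratio of 0.791 (0.393 to 1.46). Against the genome-wide rate in place of the input, the F2rl3 ratios were 5.67 for FLI1 and 1.75 for RUNX1, and within 1 kb of the start the FLI1 ratio to input was 4.31.

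F2rl1 (chr13:96281687-96295195, minus strand) encodes PAR2, a receptor cleaved by trypsin-like proteases rather than by thrombin, and is the neighbour of F2r on chromosome 13, with starts 93.2 kb apart. It had 169 FLI1, 10 RUNX1 and 37 input reads at the start site, for ratios of 1.58 (1.10 to 2.32) and 1.48 (0.656 to 3.03). Its highest FLI1 bin, 0.8 kb into the gene, held 35 reads, 2.80-fold over expected and just below the threshold. Over its whole territory of 53.6 kb the FLI1 ratio was 0.870 (0.791 to 0.957). The 3 linked receptor genes thus showed 3 called FLI1 bins at F2r, 8 at F2rl2 and 0 at F2rl1. With the bins offset by 200 bp, or with the genome-wide rate as the only expectation, F2rl1 too had a called FLI1 bin.

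**Figure D2:**
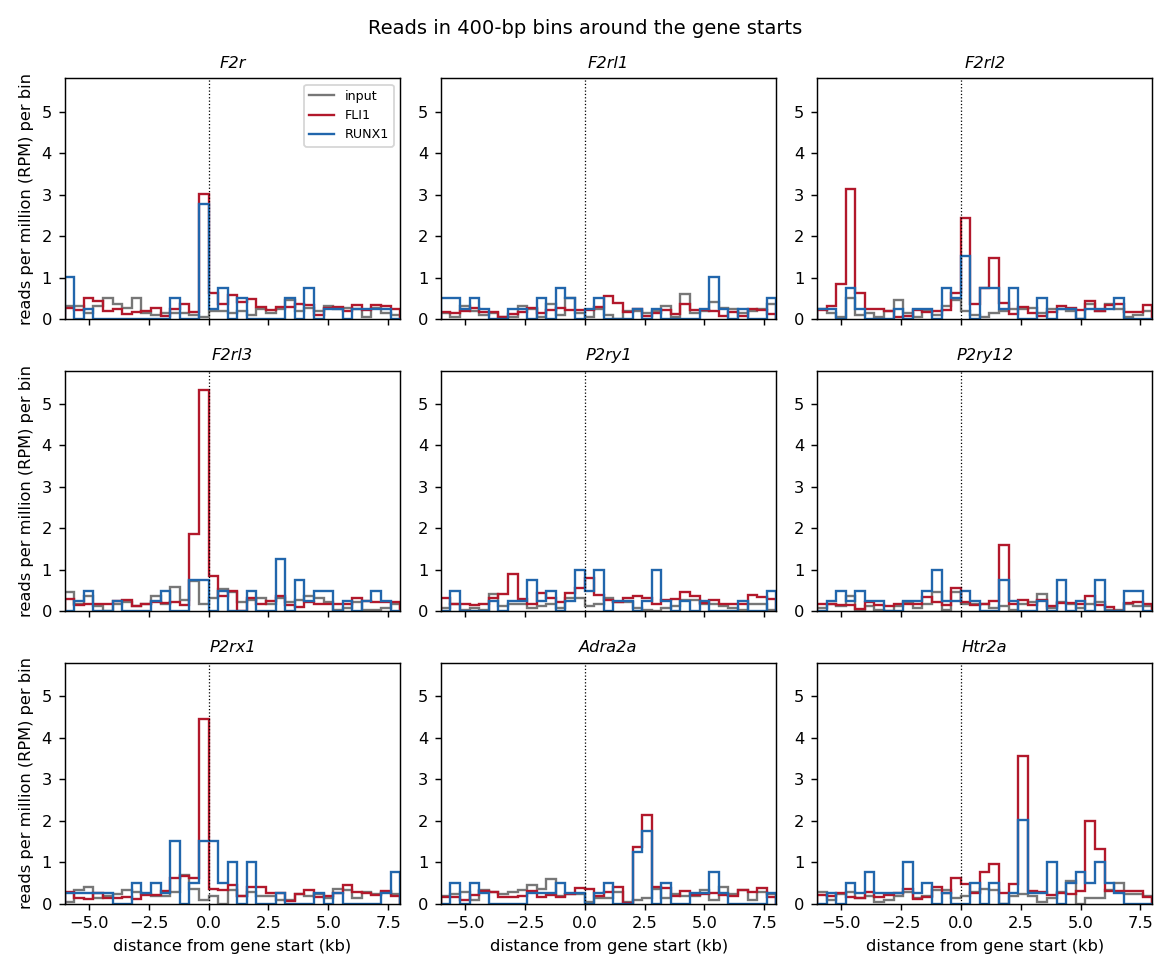
Depth-scaled reads (RPM) in 400-bp bins from 6 kb before to 8 kb after the start of each gene (dotted line), for FLI1, RUNX1 and input on a common scale. FLI1 stands just upstream of the start in F2r, F2rl3 and P2rx1 and inside the gene in Htr2a and Adra2a, where RUNX1 rises in the same bin; F2rl1 has no FLI1 bin above 0.556 RPM.

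Among the nucleotide receptors, P2rx1 had the largest FLI1 fold of all 9 genes. P2rx1 (chr11:72812605-72828702, plus strand) is an ATP-gated cation channel. Its start site held 529 FLI1, 31 RUNX1 and 56 input reads, for a FLI1 ratio of 3.26 (2.47 to 4.38) and a RUNX1 ratio of 3.03 (1.89 to 4.78); within 1 kb of the start the FLI1 ratio was 5.44. The bin just upstream of the start held 280 FLI1 reads against 2 input reads, 18.05-fold over expected, together with 6 RUNX1 reads (6.12-fold; 3 on each strand), again 1 short of a call. A further region 25.2 kb past the start, with 121 FLI1, 2 RUNX1 and 8 input reads, lay in an intron of the next gene, Camkk1, whose own start site had a FLI1 ratio of 0.963 (0.715 to 1.31). The lincRNA gene 4732414G09Rik also starts in this territory, 19738 bp past the P2rx1 start.

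The pair of ADP receptors showed weaker and more scattered FLI1 binding. P2ry1 (chr3:60806717-60812901, plus strand), a Gq-coupled receptor that starts the calcium response to ADP, had 253 FLI1, 16 RUNX1 and 47 input reads at the start site, for ratios of 1.86 (1.36 to 2.60) and 1.86 (0.986 to 3.35). Its 3 called bins, at the start and 3.2 kb before and 10 kb after it, held 50, 57 and 42 FLI1 reads, with folds of 3.93, 4.48 and 3.63. RUNX1 gave 2, 1 and 0 reads in them.

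P2ry12 (chr3:59020193-59066753, minus strand), the Gi-coupled ADP receptor that is the target of clopidogrel, had 244 FLI1, 15 RUNX1 and 44 input reads at the start site, for ratios of 1.92 (1.39 to 2.71) and 1.87 (0.964 to 3.42); within 1 kb of the start the FLI1 ratio was 1.12. Its start-site call rested on a single bin 1.6 kb into the gene, in an intron, with 100 FLI1, 3 RUNX1 and 3 input reads (8.30-fold). The bin that begins at the start held 15 FLI1 reads (0.864 of the expectation). The bin just upstream of it held 35 (2.02-fold), below the threshold. P2ry12 had 9 called FLI1 bins in all, the most of the 9 genes, over a territory of 86.8 kb. A cluster between 33.2 and 35.2 kb into the gene reached 75 and 99 FLI1 reads in its 2 regions. The remaining 5 bins, between 50 and 56.8 kb, lay around P2ry13, another ADP receptor gene, whose start is 51949 bp downstream and whose own start-site FLI1 ratio was 1.82 (1.32 to 2.56). P2ry12, P2ry13 and all of these bins also lie inside the record of Med12l on the opposite strand.

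For the amine receptors the strongest FLI1 bin lay inside the gene and was called for RUNX1 as well. Htr2a (chr14:75040647-75106666, plus strand) encodes a Gq-coupled serotonin receptor. Its start site had 274 FLI1, 8 RUNX1 and 49 input reads, for ratios of 1.93 (1.42 to 2.68) and 0.893 (0.365 to 1.90), and its start-site call came from a bin over a coding exon with 61 FLI1 reads (4.05-fold). The FLI1 ratio was 3.24 with FLI1 thinned to the RUNX1 depth by a single random draw, and the RUNX1 ratio 0.586 within 1 kb of the start. Both rest on few reads, and no interval was computed for them. Its highest bin lay further in, 2.4 kb past the start in an intron, with 224 FLI1 reads and 5 input reads (15.6-fold) and 8 RUNX1 reads (8.83-fold, 6 plus and 2 minus). The summits of FLI1 and RUNX1 in this bin, 2620 and 2634 bp from the start, were 14 bp apart. The FLI1 summit lay 2 bp from the middle of the ETS motif and 6 bp from that of the RUNX motif printed above. The RUNX1 summit lay 12 and 20 bp from them, and with 6 fragments under it its place is only rough. More FLI1 regions lay 5.2 and 10.8 kb into the gene, with 126 and 90 FLI1 reads and 2 and 0 RUNX1 reads.

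Adra2a (chr19:54119672-54123472, plus strand) encodes the Gi-coupled receptor for adrenaline on platelets. It had 152 FLI1, 9 RUNX1 and 49 input reads at the start site and the lowest FLI1 ratio of the 9 genes, 1.07 (0.772 to 1.51), with a RUNX1 ratio of 1.01 (0.434 to 2.07). Within 1 kb of the start the Adra2a ratios were 1.60 and 2.02, and P2ry12 and F2rl1 then had lower FLI1 ratios, at 1.12 and 1.23. Whether these 1-kb ratios differ beyond counting error was not tested. Thinning the FLI1 reads to the depth of RUNX1 by a single random draw gave Adra2a a FLI1 ratio of 0.558. That draw kept few reads and no interval was computed, so an effect of depth cannot be told from counting error. The called bins began exactly where the start-site window ended. The bin from 2 to 2.4 kb held 86 FLI1 and 5 RUNX1 reads, and the bin from 2.4 to 2.8 kb held 135 FLI1, 7 RUNX1 and 3 input reads (FLI1 9.25-fold, RUNX1 7.60-fold). The FLI1 summit, 2383 bp from the start, lay in the coding exon. The RUNX1 summit was sought only in the bin called for RUNX1, from 2.4 to 2.8 kb, so it could not fall at the FLI1 summit. It lay at 2709 bp, under 4 fragments. The 326 bp between the 2 summits is therefore no measure of a distance between binding sites. The 100 bases around the FLI1 summit held no ETS and no RUNX motif of the spellings searched, and those around the RUNX1 summit held 2 ETS motifs. The RUNX1 calls at Adra2a and Htr2a rested on 7 and 8 reads, and both were lost when 10 reads were needed or when the bins were offset by 200 bp.

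**Figure D3:**
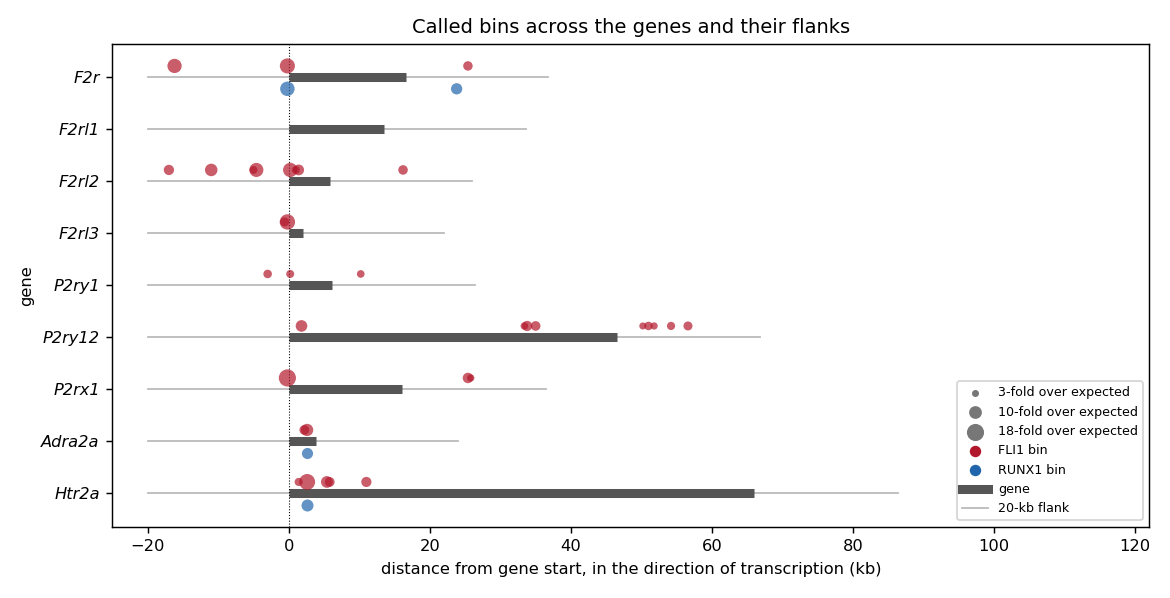
Called FLI1 bins (red, above each line) and RUNX1 bins (blue, below) across the 9 genes, in kb from the gene start in the direction of transcription; the area of a dot scales with the fold over expected, thick bars are the genes and thin lines the 20-kb flanks. F2rl2 and P2ry12 carry 8 and 9 FLI1 bins, F2rl1 none, and 3 of the 4 RUNX1 bins coincide with a FLI1 bin. RUNX1 was called in 8.57% of the FLI1 bins of these genes and 0.0763% of their other bins. Over all genes the shares were 3.27% and 0.033%, so RUNX1 calls gather in FLI1 bins there too.

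Adjoining bins joined, the 35 FLI1 bins formed 28 regions, 21 of 1 bin and 7 of 2 bins. Their highest bins ran from 3.05-fold to 18.05-fold, with a median of 6.46-fold. Of the 28 summits, 8 lay within 2 kb of the receptor's start, and 3 of those were upstream of it, at F2r, F2rl3 and P2rx1. This split depends on the annotation. RefSeq places the F2rl2 start 67 bp after the gene record start, and the F2rl2 summit at 57 bp is then upstream too. That window spans 10 bins per gene, where the median territory of the receptors had 134 bins. The share of summits near the start was not counted over all genes. By annotation, 7 summits lay in an intron of the receptor gene, 4 in its UTR or coding sequence, 11 in the record of another gene only and 6 in no gene. The regions with 10-fold or more numbered 7 and belonged to 5 genes: P2rx1, Htr2a, F2rl3, F2r and F2rl2. Neither the places by annotation nor the 10-fold class was counted over all genes, so no excess can be read from them. With a fold of 5 needed for a call, 7 receptors had a FLI1 bin in the territory, against 45.85% of all genes.

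RUNX1 reads were more frequent in the bins that FLI1 marked. The 35 called FLI1 bins of the receptors held 102 RUNX1 reads, 2.91 per bin (2.38 to 3.54), and the other 1311 bins held 0.825 per bin (0.776 to 0.875). Input had 4.66 reads per bin in the first set and 4.45 in the second. Because a FLI1 call required reads well above the nearby input, this input comparison was not independent of the calls. Over the territories of all genes the corresponding RUNX1 values were 2.17 and 0.671 per bin, so the excess in FLI1 bins was seen over all genes too. By gene, the RUNX1 reads per FLI1 bin were highest at Adra2a, 6 (3.10 to 10.5), and F2r, 5.67 (3.30 to 9.07), and lowest at P2ry1, 1 (0.206 to 2.92). Of the 35 bins, 4 held no RUNX1 read. At a mean of 0.684 reads per bin, RUNX1 binding of a few-fold was not detectable in single bins at this depth.

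**Figure D4:**
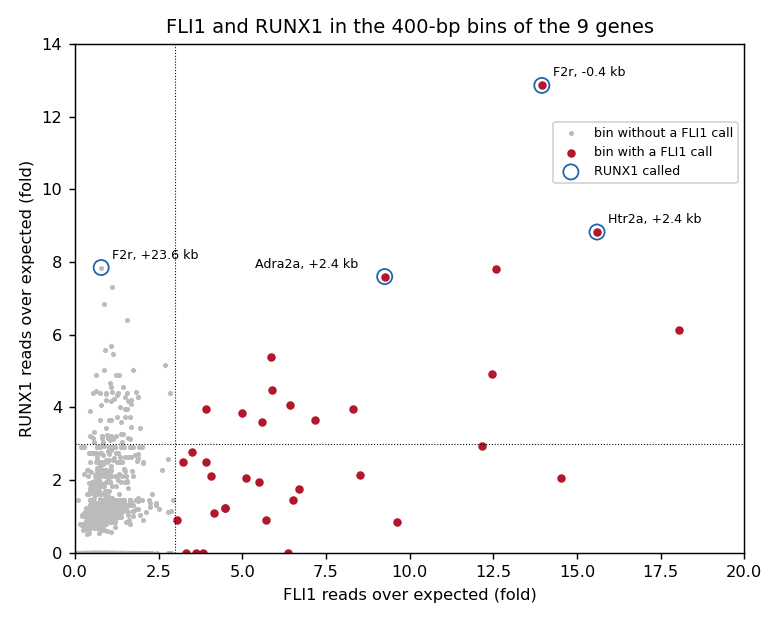
RUNX1 fold against FLI1 fold over expected for the 1346 bins of the 9 genes; red points are bins called for FLI1, blue rings bins called for RUNX1, and dotted lines mark the 3-fold threshold. The rings at F2r, Htr2a and Adra2a lie far out on both axes, and the ring at F2r 23.6 kb past the start lies at 0.779 for FLI1.

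Motifs were counted in the 28 windows of 100 bases around the FLI1 summits of the receptors, and no difference in their shares was tested. An ETS motif of the 4 spellings was in 17 (60.7%) of them. At the highest FLI1 region of each gene, it was in 4 of the 8 receptors with a region (F2rl3, P2ry12, P2rx1 and Htr2a), against 61.3% of the windows at the highest FLI1 bin of each of 14067 genes, 8.05% of windows 500 bp away from those, and 15.2% of windows at all gene starts. RUNX motifs were in 4 of the 28 (14.3%) and in 2 of the 8 highest regions, against 15.1% at the highest bins of all genes and 8.19% at 500 bp. GATA motifs (AGATA or the variant TGATA, followed by A or G) were in 8 of the 28 (28.6%) and in 3 of the 8, against 14.1% and 12.6%. The core TGAGTCA that NF-E2 recognises was in 1 of the 28 (3.57%), also 1 of the 8, at the F2rl2 start, 41 bp from the summit, against 3.23% and 1.39%. The receptor summits were sought over joined bins, whereas those of all genes were sought in the highest bin alone. Among the highest regions of the receptors, only the Adra2a summit lay outside its highest bin. All motifs were searched on both strands, and a match describes the letters only.

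Other genes of the same signalling system gave a range of values, to be read against the shares over all genes. Those were FLI1 bins at 36.2% of all start sites and in 63% of all territories, and RUNX1 bins at 2.86% and in 10.5%. Among 23 further nucleotide, adenosine and amine receptor genes, 4 had a FLI1 bin at the start site and 15 in the territory, with a median FLI1 ratio of 0.934, below the median of 1.28 for all genes. Among 19 genes for G proteins, kinases, arrestins and other effectors behind the receptors, 14 had one at the start site and all 19 in the territory, with a median ratio of 2.37. Of 8 genes whose products make, store or remove the agonists, 2 had a FLI1 bin at the start site and 8 in the territory (median ratio 1.45). RUNX1 was called at no start site in these 3 lists, and in the territories of 1 of 23, 2 of 19 and 2 of 8 genes. The highest FLI1 ratios of the 3 lists were those of Rgs18, a brake on G-protein signals in platelets, at 5.05 (3.44 to 7.69), and Slc35d3, needed for dense granules, at 4.39 (3.16 to 6.24). The lowest were the adenosine receptor gene Adora1 at 0.534 (0.386 to 0.744) and the adrenergic receptor gene Adra2c at 0.587 (0.397 to 0.876).

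Marker genes were read in the same way and against the same shares, as a description of FLI1 binding and not of expression. FLI1 bins lay at the start sites of 8 of 10 megakaryocyte genes (median ratio 2.45), 1 of 6 erythroid genes (1.14), 3 of 6 granulocyte and macrophage genes (1.53) and 0 of 6 genes of tissues other than blood (0.793). RUNX1 was called at none of these start sites, and in the territories of 3 of the 10 megakaryocyte genes and of none of the others. The part of any non-megakaryocyte cells in the reads at the receptors was not tested.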

How the data were processed

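The deposited files were BED lists of aligned reads, 1 line per read with its start and end positions, in mm9 coordinates. Per the labels and the study's methods, the authors aligned reads with Bowtie (version not given in the sources used here), kept uniquely mapped reads at distinct positions, and also used MACS 1.4 and SICER 1.1; their peak lists were not used here. The FLI1 and RUNX1 files held reads of 50 bases and no repeated position. The input held reads of 34 bases, and 729089 (3.24%) repeats of a position and strand were removed, as were reads on the mitochondrial genome. The methods describe an input digested with micrococcal nuclease where the labels describe sonication, and give embryonic day 14 where the labels give 15; what these differences do to the counts was not tested.

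Reads were moved 75 bp towards the fragment centre and counted in 400-bp bins with Python 3.11.15, NumPy 2.4.6, pandas 2.3.3 and SciPy 1.17.1. The expected reads of a bin were the highest of the genome-wide rate over bins with an input read (10.9 for FLI1, 0.684 for RUNX1) and the input over 1, 5 and 10 kb, scaled to depth. Genes came from GENCODE M1 (NCBIM37, the same assembly as mm9). The genes and lists were chosen with earlier results of these data known. All 9 receptors were named; of the pathway lists, the 2 highest and 2 lowest FLI1 ratios, and any gene whose start lay in a receptor's territory. With 1 library per antibody there was no test. The bin calls and intervals were tested on simulated data. Alternatives varied the fold, the reads needed, the expectation, the read shift, the bin offset, the windows, the annotated starts and the FLI1 depth. The FLI1 reads were thinned by a single random draw. Ratios under the alternatives carry no interval, and those within 1 kb or after thinning rest on fewer reads.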

Additional observations from a re-analysis of the deposited data

How the results depend on the processing

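The 9 alternative values of the median ratios ran from 1.95 to 2.51 for FLI1 (main value 1.93) and from 1.75 to 2.19 for RUNX1 (1.86). All lay inside the counting interval of the gene at the main median, Htr2a for FLI1 (1.42 to 2.68) and P2ry1 for RUNX1 (0.986 to 3.35). Such an interval holds the counting error of a single gene and does not measure the spread of a median. Of the 59 alternative member counts, 47 were within 1.5 times the main count. FLI1 counts moved once: with FLI1 thinned to the RUNX1 depth, 4 start sites were called instead of 7 (F2r, F2rl2, F2rl3 and P2rx1), where all genes gave 15.3%. RUNX1 counts rested on few reads. With 5 reads needed, RUNX1 was called at 3 start sites (F2r, F2rl2 and P2rx1) and in 8 territories, and both factors in 5, while all genes rose to 13.2%, 52% and 18.6%. With 10 reads needed, or with bins offset by 200 bp, only F2r kept a RUNX1 bin and a bin of both factors, 1 gene each, against 1.56% and 1.297% of all genes in the first case and 10.8% and 6.59% in the second. Reads left unshifted, or counting from every transcript start, gave 2 start sites with RUNX1 (F2r and P2rx1), against 2.59% and 3.70% of all genes, and a flank of 50 kb gave 5 territories for RUNX1 and 5 for both, against 17.4% and 10.6% of all genes. A start-site window of 1 kb kept 5 FLI1 start sites, against 33.2% of all genes, and lost P2ry12 and Htr2a. RefSeq starts, chosen after seeing the data and placed for 8 of the 9 genes, gave 7 and 1 start sites. For single genes, 12 of 81 alternative ratios left the main interval; within 1 kb, F2r rose to 8.12 for FLI1 and P2ry12 fell to 1.12, and with the genome-wide rate in place of the input F2rl3 rose to 5.67 for FLI1 and 1.75 for RUNX1. No paired analysis was possible because each antibody had 1 library. RUNX1 depth limits what a missing call can say.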
